A study of Mus musculus and Homo sapiens with 4 samples.

Results

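The 9 contractile and myofibroblast genes examined here were Acta2, Tagln, Cnn1, Myl9, Actg2, Tpm1, Tpm2, Ctgf and Cyr61. They were chosen by name, as rows whose gene symbol matches, and all 9 were found, each on 1 of the 23329 entries of the mouse fibroblast libraries. The libraries came from mouse embryonic fibroblasts (MEFs), cells grown out of dissociated embryos. Both genotypes were C57BL/6 cultures from embryos at E13.5 at passages 2 to 3. One library was labelled WT and the other NEAT1 KO, with 1 library per genotype. How many embryos or cultures went into each, and how the KO allele was made, was not given in the sources used here. The other 2 of the 4 samples of the series, VCaP prostate cancer cells with and without overexpressed ERα, were not analysed here.

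Fibroblasts that attach to a stiff surface can take up the state of a myofibroblast, a contractile, matrix-producing cell known from wound healing. Its hallmark is smooth muscle actin (Acta2) built into stress fibres, bundles of actin on which myosin pulls. Serum response factor (SRF) and its actin-sensing partners, the myocardin-related factors, switch on many contractile genes through a short DNA element called the CArG box. YAP with TEAD factors, and TGF-β signalling through Smads, act on an overlapping set that includes Ctgf and Cyr61. NEAT1 is the nuclear RNA around which paraspeckles are built. The comparison of the libraries asks how these genes differ when it is lost.

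Of the promoters, 3 are shown. Those of Acta2 and Myl9 hold matches to the SRF element. That of Cnn1 holds none in this window, and nor do those of Tpm1, Tpm2 and Cyr61, which are not shown. Each sequence shown is the 250 bases before the start in the RefSeq promoter table, in the build GRCm38.p6, and capitals mark a CArG-like box. That start abuts the entry of the files for Cnn1 and Myl9, and for Acta2 it lies 37 bases farther upstream than the start of the entry. This was searched as CC, 6 inner letters of which at most 1 was not A or T, and GG, which reads alike on both strands.
Acta2, chr19:34255374-34255623, minus strand: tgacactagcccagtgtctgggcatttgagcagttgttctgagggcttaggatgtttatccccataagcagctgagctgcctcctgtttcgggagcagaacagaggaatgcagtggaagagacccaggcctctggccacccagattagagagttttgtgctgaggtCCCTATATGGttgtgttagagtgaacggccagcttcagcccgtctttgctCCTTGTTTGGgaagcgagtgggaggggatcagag
Myl9, chr2:156775214-156775463, plus strand: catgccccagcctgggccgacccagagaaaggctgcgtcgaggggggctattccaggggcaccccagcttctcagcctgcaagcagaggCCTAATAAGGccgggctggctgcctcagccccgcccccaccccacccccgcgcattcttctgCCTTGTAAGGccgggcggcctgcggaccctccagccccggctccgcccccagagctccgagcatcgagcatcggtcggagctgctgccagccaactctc
Cnn1, chr9:22099003-22099252, plus strand: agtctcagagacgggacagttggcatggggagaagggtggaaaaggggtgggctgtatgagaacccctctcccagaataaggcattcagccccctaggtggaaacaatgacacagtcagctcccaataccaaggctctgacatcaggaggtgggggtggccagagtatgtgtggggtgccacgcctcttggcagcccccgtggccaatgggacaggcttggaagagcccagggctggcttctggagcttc

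The boxes of Acta2 lay 84 to 75 and 34 to 25 bases before the start in that table, and those of Myl9 161 to 152 and 99 to 90 bases before it. The farther box of Myl9 had only A and T inside. Such a strict box stood in 1 of the 6 member promoters with a sequence (Acta2, Cnn1, Myl9, Tpm1, Tpm2 and Cyr61) and in 1.47% of all 32851 promoters. The looser form stood in 2 of the 6 and in 8.59% of all. The TEAD core GGAATG, on either strand, stood in 3 of the 6 (Acta2, Tpm1 and Cyr61) and in 12.6% of all promoters. TATAAA, on either strand, stood in 1 of the 6, that of Cyr61, where it overlapped no other match, and in 12.4% of all. A match is a description of letters and was not tested as a binding site.

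The values are read numbers scaled to transcript length and library size (RPKM), as the authors deposited them, so levels can be compared between genes. The log2 ratio used throughout is that of the KO value plus 1 over the WT value plus 1. Neat1, the targeted gene, had 29.5 RPKM in WT and 2.01 RPKM in KO, in the direction of the labels. The libraries also differed in Y-linked genes, with Eif2s3y listed at 0 in WT and at 6.30 RPKM in KO. With 1 library per genotype no spread between cultures exists. No difference below has a replicate check or a P-value, and genotype cannot be told apart from culture or from the sex of the embryos. The 5250 entries that reached 10 RPKM in WT and in KO alike are called well expressed from here on. Over them the central 50% of log2 ratios ran from -0.16 to 0.09.

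As a group the contractile genes were abundant, with 6 of the 9 among the 100 highest entries in WT and 5 in KO, and 8 of the 9 differed little between the libraries. Their summed level was 7197 RPKM in WT and 7441 RPKM in KO, or 2.11% of all RPKM in each. The median log2 ratio over the 9 genes was -0.0011, beside -0.037 over well-expressed entries. Over entries with 100 RPKM or more in WT and in KO, where all members but Cnn1 lay, the median was 0.032. The exception was Cnn1, which was lower in KO, and the 8 other genes lay within 0.25 of 0 on the log2 scale. After quantile normalization 5 of those 8 did, with Tpm1 at -0.43, Myl9 at -0.36 and Acta2 at -0.26 beyond it. In bulk RNA fewer cells of a type and less RNA per cell cannot be told apart.

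**Figure D1:**
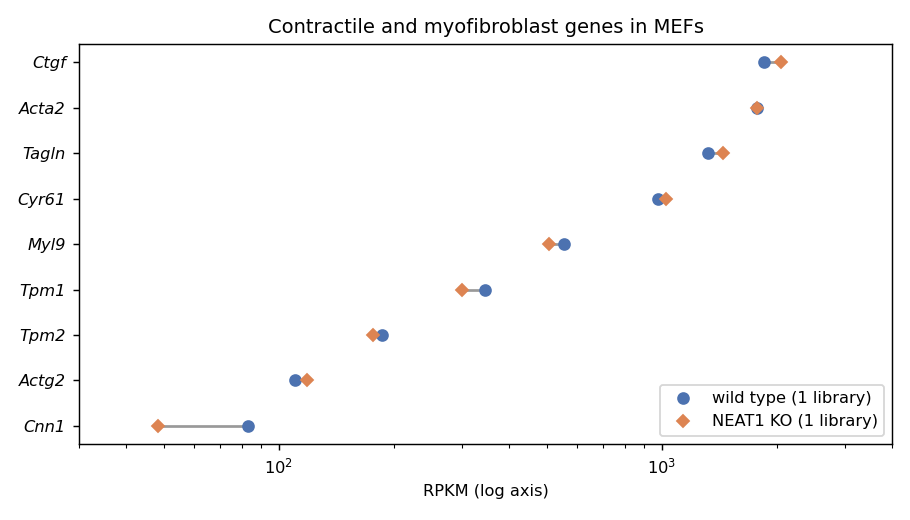
RPKM (log axis) of the 9 contractile and myofibroblast genes in the wild-type (circles) and the NEAT1 KO (diamonds) library, 1 library each and so without error bars. Cnn1 moved from 83.1 to 48.4 RPKM, while the symbols of Acta2, at 1769 and 1768 RPKM, coincide.

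The smooth muscle actins came first. Acta2, the smooth muscle α-actin that marks myofibroblasts, had 1769 RPKM in WT and 1768 RPKM in KO. It ranked 11 of all entries in WT and 15 in KO. Its entry (NM_007392) spans 34241091 to 34255336 on chromosome 19 and has 9 exons on the minus strand. Actg2, the γ-actin of enteric smooth muscle, had 110 RPKM in WT and 119 RPKM in KO (log2 ratio 0.11). Its entry (NM_009610) lies on chromosome 6, from 83512909 to 83536251, also with 9 exons. Both actins were thus nearly level between the libraries, and the sign for Acta2 depended on the scaling, with 0.058 after centring on the median and -0.26 after quantile normalization. The level of Actg2 was 6.22% of that of Acta2 in WT and 6.72% in KO.

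The actin-binding members did not behave alike. Tagln, which encodes transgelin (SM22α), an actin-bundling protein of smooth muscle, had 1318 RPKM in WT and 1446 RPKM in KO (log2 ratio 0.13, or -0.11 after quantile normalization). It lies on chromosome 9 (NM_011526, 45929628 to 45936058, 5 exons). Cnn1, which encodes calponin 1, a protein that binds actin and restrains the myosin ATPase, had 83.1 RPKM in WT and 48.4 RPKM in KO. Its log2 ratio was -0.77, and without the added 1 its KO level was 0.582 times that of WT. Cnn1 lies on the same chromosome as Tagln (NM_009922, 22099253 to 22109221, 7 exons, plus strand). The level of Cnn1 was 6.31% of that of Tagln in WT and 3.35% in KO. Of the 5250 well-expressed entries 41 (0.781%) had a log2 ratio as low as that of Cnn1 or lower. Cnn1 was also the least abundant of the 9 genes in both libraries. It ranked 715 of all entries in WT and 1334 in KO. Beside this difference the summed markers of differentiated smooth muscle went from 124 to 113 RPKM and those of macrophages from 21.5 to 52.4 RPKM. Their part in it was not tested.

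Myosin and tropomyosin members were all slightly lower in KO. Myl9, the regulatory light chain of smooth muscle myosin whose phosphorylation starts contraction, had 555 RPKM in WT and 507 RPKM in KO (log2 ratio -0.13). It lies on chromosome 2 (NM_172118, 156775464 to 156781657, 4 exons). Tpm1 and Tpm2 encode tropomyosins, coiled coils that lie along the actin filament and gate its contact with myosin. Tpm1 had 346 RPKM in WT and 300 RPKM in KO (log2 ratio -0.21), the lowest of the 9 after Cnn1. Tpm2 had 185 RPKM in WT and 176 RPKM in KO (log2 ratio -0.08). Tpm1 is on chromosome 9 (67022593 to 67049213) and Tpm2 on chromosome 4 (NM_009416, 43514712 to 43523388). The Tpm1 entry pools 10 RefSeq transcripts of 8 to 10 exons, so that its muscle and non-muscle isoforms cannot be told apart. All 3 genes lay within the central 90% of well-expressed entries, which ran from -0.43 to 0.45.

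The secreted members, which are matricellular CCN proteins and common readouts of YAP and TGF-β signalling, were slightly higher in KO, except that quantile normalization put Ctgf at 0. Ctgf, or connective tissue growth factor, had 1851 RPKM in WT and 2050 RPKM in KO (log2 ratio 0.15). It was the most abundant member and ranked 10 in both libraries. Cyr61, its close relative, had 979 RPKM in WT and 1027 RPKM in KO (log2 ratio 0.07). Ctgf lies on chromosome 10 (NM_010217, 24595442 to 24598682) and Cyr61 on chromosome 3 (NM_010516, 145646971 to 145649985), each with 5 exons. The level of Cyr61 was 52.9% of that of Ctgf in WT and 50.1% in KO.

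The order of the members by level was the same in both libraries. From high to low it ran Ctgf, Acta2, Tagln, Cyr61, Myl9, Tpm1, Tpm2, Actg2 and Cnn1. Whether neighbours in this order differ beyond the spread between cultures cannot be said with 1 library each. By ratio Ctgf and Acta2 were the closest neighbours in WT, with 1851 and 1769 RPKM.

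With a log2 ratio beyond 1 or -1 as the call, 0 of the 9 members were called in either direction. Over all 23329 entries 0.977% lay above 1 and 0.334% below -1. Among the 5250 well-expressed entries the shares were 1.14% and 0.21%. The study used a log2 threshold of 2 for genes upregulated in its VCaP comparisons, and it is applied here in both directions. Beyond 2 or -2 again 0 members were called, against 0.223% of all entries above 2 and 0.0171% below -2. At a threshold of 0.5, added after the values were seen, 1 of 9 members (Cnn1) lay below -0.5 and 0 above 0.5. Of the well-expressed entries 3.31% lay below -0.5 and 4.29% above 0.5. Among 9 genes a single one is the smallest count above 0, so these counts set the members apart from the background in neither direction.

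**Figure D2:**
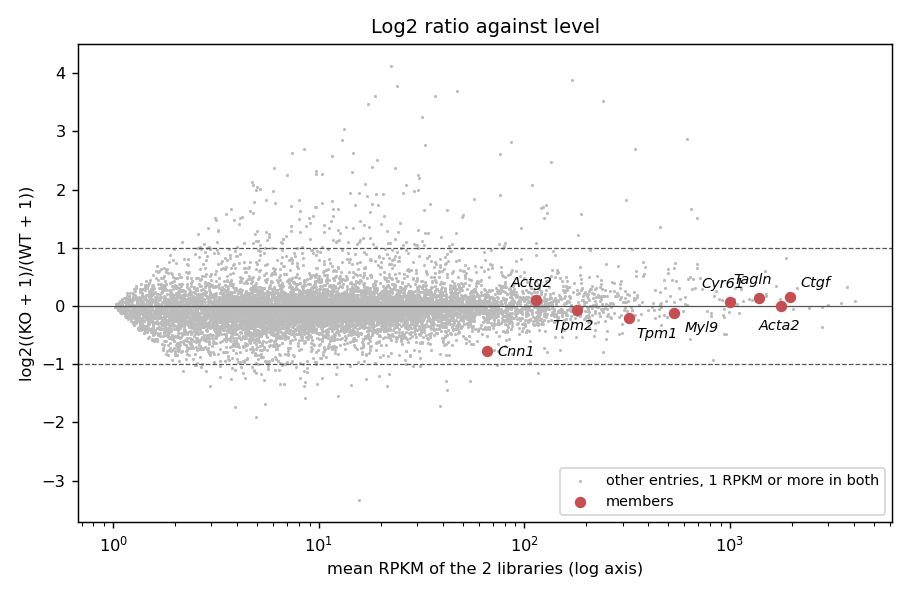
Log2 ratio of KO over WT, with 1 added to each value, against the mean RPKM of the 2 libraries (log axis), for entries with at least 1 RPKM in both (grey) and the 9 members (red). Dashed lines mark 1 and -1. Of the members Cnn1, at -0.77, lies farthest from 0 and none crosses a line.

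The depth behind the values was estimated from the lowest ones, since the authors deposited no counts. When low RPKM values of entries with 1 transcript were multiplied by its length, they clustered around multiples of a common step in each library. The step was taken from these same values and sought only within a range set beforehand, which also bounds the read numbers. If the step is 1 read, the libraries held about 62800000 and 59300000 mapped reads. Of the values below 6.5 steps, 46.8% in WT and 50.9% in KO lay within 0.05 of a whole number of steps, so the estimate is rough. It would give Cnn1 about 12438 reads in WT and 6832 in KO, and Actg2 about 9213 and 9381 reads. Counting error would be small beside the difference of Cnn1, but it does not include the spread between cultures, which is unknown.

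Reads of near-identical copies could move some of these values. For each gene the share of its 50-base stretches that recur exactly in an annotated transcript of another gene was counted. It was 0 for Cnn1, Myl9, Actg2, Tpm1, Tpm2 and Cyr61, and 0.352% for Acta2, shared with Actg1 and actin pseudogenes. It was 48.3% for Tagln and 19.0% for Ctgf, both through transcripts of overlapping genes on the opposite strand. Gm48529, an antisense RNA, covers 877 of the 1595 exon bases of Tagln, and Pcsk7 covers 108. Gm15270 covers 541 of the 2398 of Ctgf. The labels describe a strand-keeping step for the VCaP libraries only, so the values of Tagln and Ctgf may include antisense reads. How much was not tested.

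The families to which the members belong kept their make-up, with small exceptions. Among 6 actins Acta2 held 32.1% of the summed RPKM in WT and 31.4% in KO, and Actb, the cytoplasmic β-actin, 61.8% and 63.1%. Acta1, the skeletal muscle actin, had 12.6 RPKM in WT and 4.26 RPKM in KO (log2 ratio -1.37), and was the only paralog beyond 1 or -1. Actg1, the cytoplasmic γ-actin, had 216 and 189 RPKM, and Actc1, the cardiac actin, 0.412 and 0.255 RPKM. The muscle-type actins other than Acta2 thus contributed little to either library. For Actg1, 56.7% of its 50-base stretches recur elsewhere, so its share is uncertain.

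Among the calponins Cnn1 held 10.3% of the summed RPKM in WT and 7.04% in KO. Its relatives Cnn2 and Cnn3, which are found in many non-muscle cells, were lower in KO by less. Cnn2 had 528 RPKM in WT and 462 RPKM in KO, and Cnn3 had 195 and 177 RPKM. Their log2 ratios were -0.19 and -0.14, beside -0.77 for Cnn1. Among the transgelins the levels of Tagln and Tagln2 as deposited were instead both higher in KO. The share of Tagln in their family was still lower in KO, like that of Cnn1, with 74.98% in WT and 70.65% in KO. Tagln2, the form of non-muscle cells, had 439 RPKM in WT and 600 RPKM in KO (log2 ratio 0.45). The level of Tagln was therefore 3.00 times that of Tagln2 in WT and 2.41 times in KO. Tagln3, a neuronal form, had 0.426 and 0.421 RPKM.

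Myl9 held 51.2% of the RPKM of 4 myosin light chain genes in WT and 51.4% in KO. Its paralogs Myl12a (364 and 326 RPKM) and Myl12b (35.0 and 26.5 RPKM) encode the non-muscle regulatory chains. Myl6, the essential light chain, had 129 RPKM in WT and 127 RPKM in KO. Of the tropomyosins Tpm4 was the most abundant, with 421 RPKM in WT and 418 RPKM in KO, and Tpm3 the least, with 40.2 and 34.9 RPKM. Tpm1 and Tpm2 held 34.9% and 18.7% of the family in WT, and 32.3% and 18.9% in KO. Among the CCN genes Ctgf held 61.9% in WT and 61.8% in KO. The 3 less abundant relatives with at least 1 RPKM were all higher in KO. Wisp2 had 113 and 173 RPKM (log2 ratio 0.61), Nov 7.36 and 10.7 RPKM (0.48), and Wisp1 42.3 and 55.9 RPKM (0.39). Wisp3 was near 0 in both, with 0.0266 and 0.0238 RPKM. Over all 17 paralogs 5 were higher and 12 lower, beside 57.7% lower among well-expressed entries, and their median log2 ratio was -0.026. After centring 9 were higher and 8 lower.

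**Figure D3:**
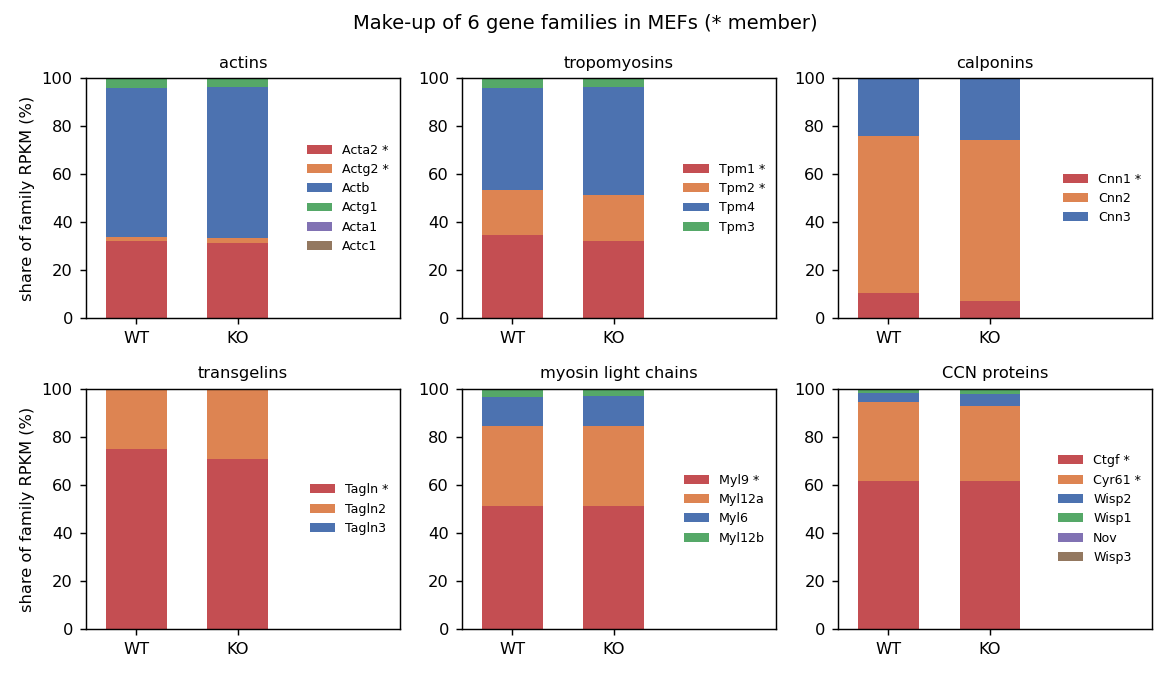
Share (%) of each gene in the summed RPKM of its family, for 6 families in the wild-type and the KO library, 1 library each. Asterisks mark the members. The bars of a pair are much alike in most families. The share of Tagln among transgelins goes from 74.98% to 70.65%, and that of Cnn1 among calponins from 10.3% to 7.04%.

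Other contractile and stress-fibre genes were more often lower than higher in KO. Of 24 such genes 20 were lower and 4 higher, and their median log2 ratio was -0.17. Of the well-expressed entries 57.7% were lower. The median stayed below 0 after centring (-0.11, 17 lower) and after quantile normalization (-0.24, 19 lower). Only Myh10 lay beyond -1 and none beyond 1, and centring brought Myh10 to -0.96. Myh10, the heavy chain of non-muscle myosin IIB, had 98.8 RPKM in WT and 48.2 RPKM in KO (log2 ratio -1.02). Des, the muscle intermediate filament desmin, had 6.28 and 3.20 RPKM (log2 ratio -0.79). Fhl1, a LIM-domain protein of muscle, had 188 and 111 RPKM (log2 ratio -0.75). At the other end Csrp2 (51.7 and 69.9 RPKM) and Csrp1 (300 and 343 RPKM), which encode LIM proteins of smooth muscle, and Palld (54.4 and 61.6 RPKM), which encodes the stress-fibre protein palladin, were higher in KO. With 1 added, Cnn1 thus had a log2 ratio near those of Des and Fhl1, while Acta2 and Tagln did not. Without the added 1 the ratios were -0.78 for Cnn1, -0.75 for Fhl1 and -0.97 for Des, so the nearness to Des depended on it.

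Of the pathways upstream, YAP and TEAD genes and targets varied mostly around 0, with 7 of 12 lower and 5 higher and a median log2 ratio of -0.082, or 6 and 6 after centring. Ankrd1, a much used YAP target, had 42.1 RPKM in WT and 20.0 RPKM in KO (log2 ratio -1.04), or -0.98 after centring. Ctgf and Cyr61, the YAP targets among the members, were instead slightly higher. The TEAD factor genes Tead4 (3.00 and 1.97 RPKM) and Tead2 (46.2 and 36.2 RPKM) were lower. Higher were Amotl2 (238 and 286 RPKM) and Lats2 (52.4 and 59.5 RPKM), whose products restrain YAP, and Wwtr1 (28.6 and 32.5 RPKM), which encodes its paralog TAZ.

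TGF-β ligands, receptors and Smads were split, 7 lower and 6 higher of 13, and their median log2 ratio was -0.067. Tgfbr3, or betaglycan, the co-receptor that presents TGF-β2, was the only gene of the list beyond 1. It had 5.39 RPKM in WT and 19.3 RPKM in KO (log2 ratio 1.67). Tgfb1, a known inducer of Acta2, had 63.4 and 92.7 RPKM (log2 ratio 0.54). Skil, which represses Smads, had 14.2 and 16.4 RPKM. On the low side Ski, a related repressor, had 77.3 and 61.2 RPKM, Tgfb3 had 129 and 105 RPKM, and Smad6, an inhibitory Smad, had 29.0 and 24.1 RPKM.

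Matrix genes known to be induced by TGF-β had the highest median of the 5 lists around the members, 0.31, with 12 of 15 higher in KO and 3 lower. Of the well-expressed entries 42.3% were higher, but of the entries with 100 RPKM or more in WT and in KO, where 10 of the 15 genes lay, it was 57.5%. Tgfbi, a secreted adhesion protein, was the only one beyond 1, with 16.5 RPKM in WT and 36.6 RPKM in KO and a log2 ratio of 1.11. Col3a1, the chain of type III collagen, had 223 and 442 RPKM (0.98), and Postn, or periostin, 93.5 and 182 RPKM (0.95). Centring took both past 1, and quantile normalization put them at 0.80 and 0.90 and the median of the list at 0.21. Fn1, or fibronectin, was the lowest, with 765 and 517 RPKM (log2 ratio -0.56). Itgav, an integrin subunit, was nearly level (41.4 and 41.2 RPKM). The contractile members thus had a median near 0 in the same libraries in which this list had one of 0.31; the difference between the lists was not tested.

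**Figure D4:**
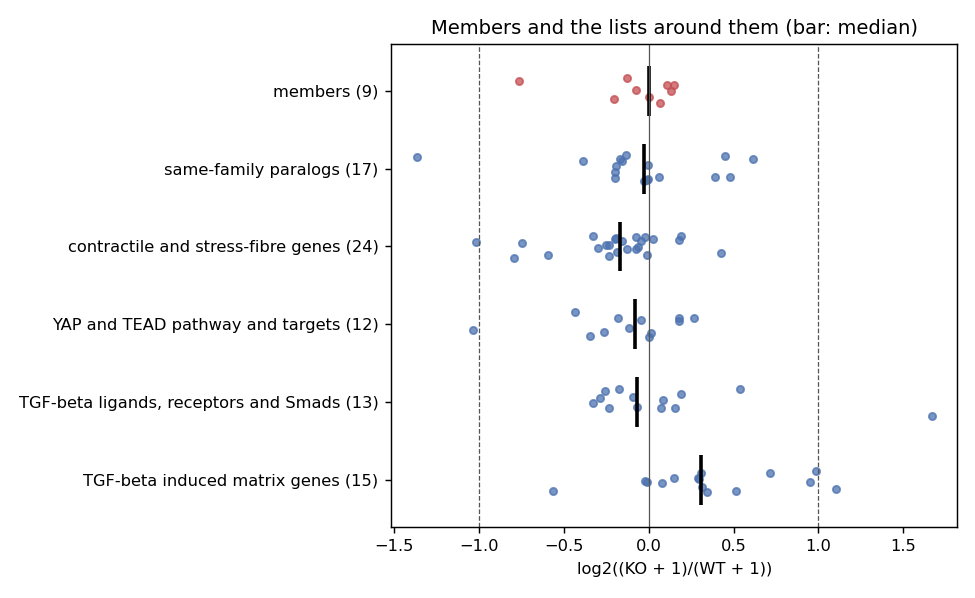
Log2 ratio of KO over WT, with 1 added to each value, for the members (red) and the genes of 5 lists around them (blue). Each point is a gene, black bars mark medians, dashed lines mark 1 and -1, and the number of genes stands in brackets. The median is -0.0011 for the members, -0.17 for the other contractile genes and 0.31 for the matrix genes.

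Markers were summed to check the label. The 10 fibroblast markers summed to 5747 RPKM in WT and 5709 RPKM in KO, most of it from Vim, Col1a1 and Col1a2, while Fap had 0.994 and 1.52 RPKM. Of the 10, 8 were higher and 2 lower in KO, with a median of 0.34 on the log2 scale, and 3 lay above 1: Lum (7.98 and 33.0 RPKM), Dcn (19.8 and 64.0 RPKM) and Pdgfra (4.18 and 13.8 RPKM). Over all entries 30.1% were higher and 0.977% lay above 1, and over well-expressed entries 42.3% and 1.14%. Vim, or vimentin, had 3151 and 2448 RPKM. The 8 markers of differentiated smooth muscle summed to 124 RPKM in WT and 113 RPKM in KO, with 7 lower and 1 higher, or 5 and 3 after centring, and 4 of the 8 were below 1 RPKM in both libraries. Over all entries 43.2% were lower. Myh11, the smooth muscle myosin heavy chain, had 0.910 and 0.714 RPKM, and Myocd, or myocardin, 0.277 and 0.202 RPKM. Myh11 and Myocd were thus near 0, unlike Acta2 and Tagln. Smtn (42.4 and 36.7 RPKM), Hspb6 (42.9 and 47.7 RPKM), Lmod1 and Des were above 1 RPKM in both libraries. They made up nearly all of the smooth muscle sum, so the list as a whole was not near 0. The 5 pericyte markers summed to 141 and 153 RPKM, mostly Cspg4 (117 and 134 RPKM). The 4 others were lower in KO, with Mcam at 22.8 and 17.9 RPKM and 3 below 1 RPKM in both libraries.

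Of 12 skeletal and cardiac muscle markers 3 were listed at 0 in WT and 7 in KO. They summed to 14.6 and 5.77 RPKM, most of it Acta1. Myod1 had 0.0139 RPKM in WT and was listed at 0 in KO. The 8 macrophage markers were all higher in KO, summing to 21.5 RPKM in WT and 52.4 RPKM in KO, most of it Lyz2. Above a log2 ratio of 1 were Lyz2 (13.9 and 34.7 RPKM), Cd68 (2.79 and 7.26 RPKM) and Cd14 (1.67 and 4.73 RPKM). None was listed at 0, but 3 of the 8 (Ptprc, Csf1r and Itgam) were below 1 RPKM in both libraries. Beside them 30.1% of all entries were higher and 0.977% lay above 1. Endothelial markers (sums of 1.13 and 0.576 RPKM over 5 genes) and epithelial markers (1.12 and 0.684 RPKM over 6 genes) were near 0.

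**Figure D5:**
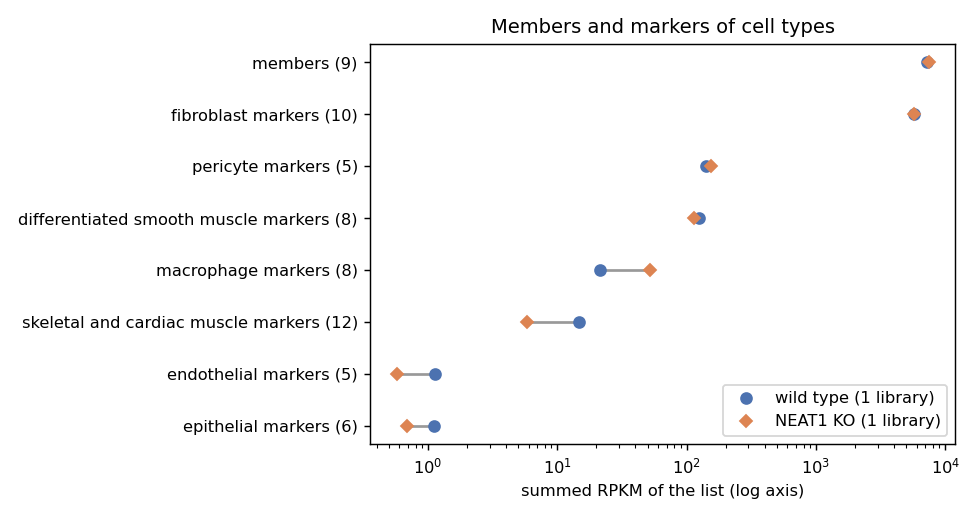
Summed RPKM (log axis) of the 9 members and of 7 lists of cell type markers in the wild-type (circles) and the KO (diamonds) library, 1 library each; the number of genes stands in brackets. The members sum to 7197 and 7441 RPKM, and the macrophage markers go from 21.5 to 52.4 RPKM.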

How the data were processed

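RNA of MEFs was sequenced after poly-A selection with standard Illumina libraries, 1 library per genotype. The authors deposited 1 RPKM value per RefSeq entry, relative to entry length and mapped reads. No normalization between libraries was stated. The submitters' processing notes name CASAVA 1.8 and the build mm10, and aligner, counter and read length were not given in the sources used here. Of 20735 entries whose symbol is in RefSeq's GRCm38.p6 table, 99.4% overlapped that gene. Starts, given in the files from 0, are printed with 1 added.

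A pseudocount of 1 went into each log2 ratio, as the definition of the gene group sets, and every entry was kept. Log2 thresholds of 1 and 2 were used. No test was made. The members and lists were chosen with earlier results of these data known. Named were the 9 members, their paralogs and, per list, the 3 highest and 3 lowest ratios among genes averaging at least 1 RPKM, plus markers that define a cell type. Ajuba was found under its older symbol. The values of 1 list and of 1 further gene are not reported here. As alternatives served a pseudocount of 0.1, none, a minimum of 1 RPKM in 1 library, centring on the median, quantile normalization and summing the entries of a symbol. Promoters are from RefSeq, and transcripts, exons and lengths from GENCODE M21. Scripts, tested on simulated data, ran in Python 3.11.15 with pandas 2.3.3, numpy 2.4.6 and, for plots, matplotlib 3.10.9.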

Additional observations from a re-analysis of the deposited data

How the results depend on the processing

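The 132 alternative values, 6 settings for each of 22 results, all fell within a wide tolerance. A log2 ratio was taken as close within 0.58 and a count within 1.5 times, since no replicate spread exists. Every member but Cnn1 had a log2 ratio smaller than 0.58 in size, so even a change of sign could count as close. The minimum of 1 RPKM could not alter a member, and the pseudocounts hardly could at these levels. That all 132 were close is therefore little evidence of stability. Cnn1 kept its direction in every setting, with log2 ratios from -0.78 to -0.71. The largest move of a member was 0.25, that of Acta2, which quantile normalization put at -0.26 and centring at 0.058. Quantile normalization also turned Tagln to -0.11 and put Ctgf at 0, so that 2 members were higher and 6 lower, against 5 and 4 after centring and 4 and 5 as reported. The direction of Acta2 and Tagln therefore depends on the scaling. Quantile normalization gives equal ranks equal values, so the 0 of Ctgf, which ranked 10 in both libraries, followed from its rank alone. The median of the members ran from -0.16 to 0.058 over the settings. No member passed 1 or -1 in any setting. Every gene of the lists stood on 1 entry, so summing entries altered nothing. No paired analysis was possible because each genotype has 1 library. For the same reason leaving out a replicate was not possible, and no difference can be weighed against a spread between cultures.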

Other observations

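Genes often used as references were also read in both libraries. Gapdh, a glycolytic enzyme, had 111 RPKM in WT and 105 RPKM in KO (log2 ratio -0.09), and Hprt, of purine salvage, had 32.3 and 30.1 RPKM. Tbp, the TATA-binding protein, had 8.65 and 8.71 RPKM. Ppia, an abundant cyclophilin in most cells, had only 2.13 RPKM in WT and 1.69 RPKM in KO. Of its 50-base stretches 54.3% recur in annotated transcripts of other genes, and of those of Gapdh 82.5%. The same share was 56.7% for Actg1, 53.2% for Myl6, 52.8% for Tpm3, 30.3% for Cnn3, 29.6% for Myl12a and 16.1% for Tpm4. The levels of these genes, and the family shares given for them, are therefore uncertain where the counting left out or split such reads, which was not stated in the sources used here. The members Cnn1, Myl9, Actg2, Tpm1, Tpm2 and Cyr61 had no such stretch at 50 bases. At 36 bases Acta2 had 1.05%, Actg2 0.539%, Tpm2 0.0969% and Tpm1 0.0497%, while Cnn1, Myl9 and Cyr61 again had none.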
